A study of Saccharomyces cerevisiae with 6 samples.

Results

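Translation factors are the proteins that guide ribosomes through protein synthesis, and the transcripts of 36 of their genes in budding yeast are described here. The members were named by gene symbol, and each had 1 probe set on the array, so all 36 were found among the 5449 genes tested. They comprise 26 genes of initiation, 8 of elongation and 2 of termination. Of the 36 genes, 12 rose and 2 fell in cells lacking NPL3, and 22 were not called. This is 38.9% of the members, whereas 61.8% of all genes tested passed the same test.

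The study compared 3 cultures of an npl3 deletion strain (WNPL3B1-2B) with 3 wild type cultures (W303-1A bar1∆), with 1 array hybridised per culture. Npl3, the protein encoded by NPL3, is an SR-like RNA-binding protein that shuttles with mRNA out of the nucleus and is also known to bind eIF4G and repress translation. In the deletion strain the gene is replaced by a marker (npl3::KanMX). By their labels, the strains are MATa and carry ura3-1, trp1-1 and ade2-1, with can1-100, his3-11,15 and the same leu2 allele. The LEU2 transcript, given below, differed between the strains, and whether their leu2 alleles differ was not tested. Either strain also has bar1ΔHphMX, a deletion of the protease gene BAR1. Cultures were in mid-log growth in rich medium, named YPAD or YPD in different fields of the labels. All 3 deletion arrays carry 1 strain name, and the labels do not say whether the cultures came from 1 clone.

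Initiation begins when eIF2 carries the initiator tRNA to the small ribosomal subunit with eIF1, eIF1A, eIF3 and eIF5, while the cap-binding complex recruits the mRNA. The subunit scans to a start codon, eIF5B joins the large subunit, and eIF2B recharges eIF2 with GTP for another round. Elongation is then driven by eEF1, eEF2, the fungal factor eEF3 and eIF5A, and termination by the release factors eRF1 and eRF3. Yeast is the organism in which many of these factors were identified genetically, and their transcripts are abundant in growing cells.

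Values are log2 expression values as deposited, so a difference of 1 is a doubling, and a gene is called where the limma test gives an adjusted p under 0.05. NPL3 was at 3.96 ± 0.14 in the deletion and 11.15 ± 0.35 in wild type (SD, n = 3 arrays each), and BAR1 was below the background level of 2.13 in either group. LEU2 differed by 5.66 between the strains although their labels give the same leu2 allele. The MATa markers averaged 9.39 to 9.50 on the deletion arrays and 9.87 to 9.91 on the wild type arrays, with 4 of 5 lower in the deletion. The MAT alpha markers averaged 4.64 to 4.77 on the deletion arrays and 4.79 to 4.96 on the wild type arrays, with 1 of 4 higher and 2 lower. The spore markers averaged 5.59 to 5.80 and 5.26 to 5.47 on the same arrays, with 2 of 4 higher and 1 lower, and no list had a marker at 0. In all 8 control genes with probe sets at either end, the 5′ minus 3′ difference was higher in the deletion, by 0.24 to 1.42. Hybridization controls averaged 8.67 ± 0.60 in the deletion and 9.31 ± 0.08 in wild type, with npl3 deletion replicate 1 apart at 7.99, and labelling controls averaged 4.80 ± 0.20 in the deletion and 4.10 ± 0.12 in wild type. The part of these differences in the results was not tested. In RNA from a whole culture, a lower level in every cell and fewer cells with the transcript cannot be told apart.

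The differences of the members were small. The median over the 36 genes was 0.07 and their range -0.90 to 0.63 (deletion minus wild type), beside a median of 0.01 over all genes. Taken without sign, the median size was 0.11 for the members, 0.23 for all genes and 0.16 for the 1362 brightest genes, which hold 30 of the members and of which 53.6% were called and 29.5% called higher. A fold of at least 1.5 was passed by 2 members, FUN12 and DBP1, and by 16.9% of all genes. Leaving out 1 array left 6 to 11 rises among the members, with 6 without wild type replicate 3 or npl3 deletion replicate 3 and 7 without npl3 deletion replicate 2. The groups did not overlap for 23 of the 36 members and for 68.8% of all genes. The median of the members, relative to the wild type mean of each gene, was 0.068, 0.064 and 0.074 on the deletion arrays and 0.017, 0.008 and -0.016 on the wild type arrays.

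**Figure D1:**
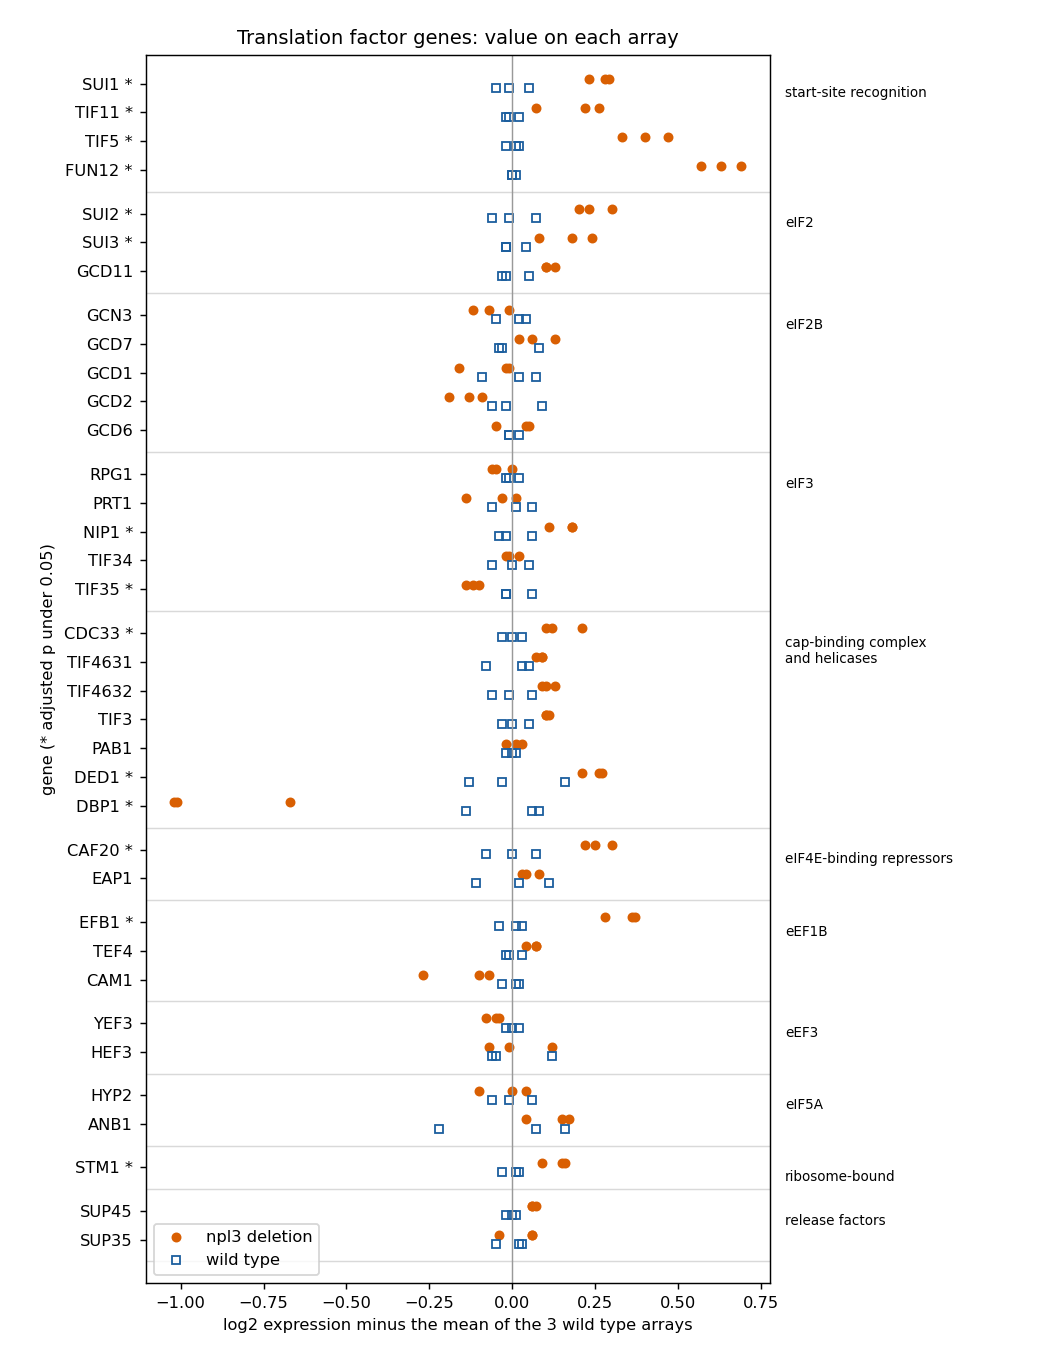
Log2 expression of each translation factor gene on each array, minus the mean of that gene over the 3 wild type arrays (horizontal axis), with the deletion arrays as filled circles above the wild type arrays as open squares in each row. Genes are grouped by complex and an asterisk marks the 14 called genes. DBP1 lies far to the left and FUN12, TIF5 and EFB1 to the right, while eIF2B, eEF3, eIF5A and the release factors sit close to 0.

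**Figure D2:**
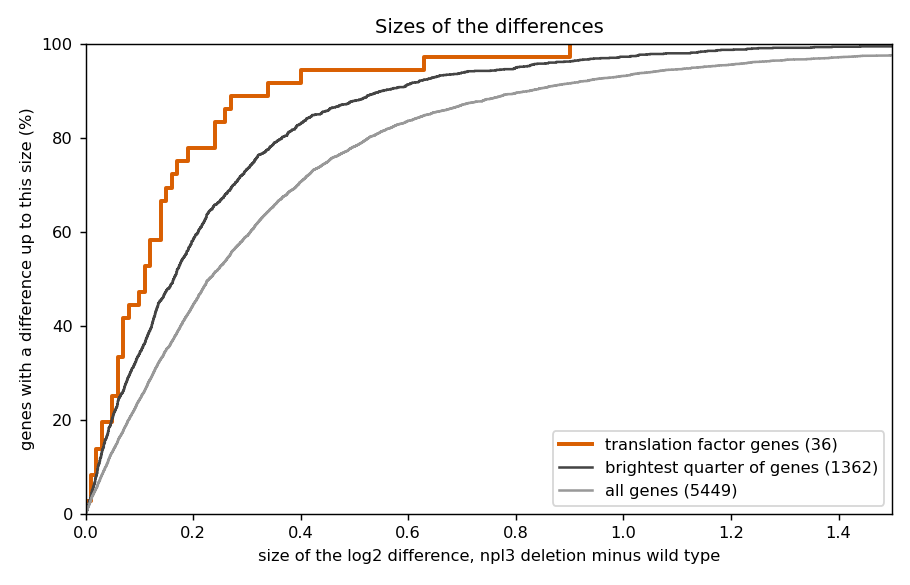
Cumulative share of genes (vertical axis, %) with a log2 difference up to a given size without sign (horizontal axis), for the 36 translation factor genes, the 1362 brightest genes and all 5449 genes. The median sizes are 0.11, 0.16 and 0.23.

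Initiation factors held most of the calls. Of 26 genes, 10 rose and 2 fell, and the median difference was 0.09, where 32.9% of all genes were called higher and 28.9% lower. The rises lay in the factors that recognise the start codon, in the subunit-joining factor eIF5B and in eIF2. Others were in the helicase gene DED1, in the cap-binding protein gene CDC33 and its repressor CAF20, and in 1 subunit of eIF3. No eIF2B gene was called. Leaving out 1 array reduced the number of rises to between 5 and 9, and the fewest, 5, came without wild type replicate 3 and without npl3 deletion replicate 3. Without npl3 deletion replicate 2 there were 6.

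All 4 genes listed for start codon recognition and subunit joining were called higher, where 32.9% of all genes were. The calls on TIF11 and FUN12 have limits, given below. SUI1 encodes eIF1, which keeps the scanning subunit from stopping at wrong codons, and read 11.93, 11.87 and 11.92 on the deletion arrays, against 11.69, 11.59 and 11.63 on the wild type arrays. The lowest deletion array was above the highest wild type array, and the rise was 0.27 (SE 0.05, adjusted p = 0.0018). TIF5 encodes eIF5, which triggers GTP hydrolysis by eIF2, and read 10.77, 10.70 and 10.63 in the deletion, against 10.32, 10.31 and 10.28 in wild type. This was a 1.32-fold rise (0.40, SE 0.05, adjusted p = 0.00038), and the gap between the groups was wider than the range of either. Both rises were called with each array left out.

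TIF11, the gene of eIF1A, which binds the decoding site beside eIF1, rose less. It was at 11.51, 11.70 and 11.66 in the deletion and 11.43, 11.46 and 11.42 in wild type, with no overlap and a difference of 0.19 (SE 0.06, adjusted p = 0.027). The first deletion array stood lowest of its group, close to the wild type values. The call was lost without any of the wild type replicates (adjusted p = 0.054, 0.052 and 0.073 without replicates 1, 2 and 3) or npl3 deletion replicate 2 or 3 (adjusted p = 0.092 and 0.085).

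FUN12, the gene of the subunit-joining GTPase eIF5B, had the largest rise of the 36 members, which did not hold relative to its chromosome. Its values were 12.06, 12.18 and 12.12 in the deletion, against 11.50, 11.49 and 11.49 in wild type. All deletion arrays were far above the wild type arrays, and the rise of 0.63 (SE 0.05, adjusted p = 2.5e-05) is a fold of 1.54. FUN12 lies on chromosome I, and it was at -0.20 (adjusted p = 0.011) relative to the median change and at -0.04 (adjusted p = 0.59) relative to the median level of that chromosome.

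Of the 3 eIF2 genes, 2 were called higher, where 32.9% of all genes were. SUI2 encodes the alpha subunit, whose phosphorylation by Gcn2 blocks recycling by eIF2B, and read 11.17, 11.10 and 11.07 in the deletion and 10.94, 10.86 and 10.81 in wild type. It rose by 0.24 (SE 0.05, adjusted p = 0.0058), with no overlap, and was called with each array left out. SUI3, the beta subunit, was at 11.27, 11.43 and 11.37 in the deletion and 11.23, 11.17 and 11.17 in wild type, a rise of 0.17 (SE 0.06, adjusted p = 0.033). The call on SUI3 was lost without wild type replicate 2 or 3 (adjusted p = 0.084 and 0.092) or npl3 deletion replicate 2 or 3 (adjusted p = 0.11 and 0.088), and relative to the median level of its chromosome (adjusted p = 0.061). GCD11, the GTP-binding gamma subunit, differed by 0.11 (95% interval 0.00 to 0.21, adjusted p = 0.07) and was not called. Its groups did not overlap, as for 68.8% of all genes. GCD11 was called with a trended and robust variance (0.11, adjusted p = 0.027) and with array weights (0.11, adjusted p = 0.04). It was also called relative to the median level of its chromosome (0.29, adjusted p = 0.0013) and relative to that chromosome's median change (0.16, adjusted p = 0.014).

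None of the eIF2B genes was called, where 61.8% of all genes were called, although GCD2 was called in 5 alternatives. This complex is the exchange factor of eIF2, and its 5 genes had differences from -0.14 to 0.07. The genes of the catalytic part, GCD6 and GCD1, averaged 9.80 ± 0.05 and 9.60 ± 0.08 in the deletion, and 9.79 ± 0.02 and 9.66 ± 0.08 in wild type (SD, n = 3 arrays each). In the regulatory part, GCN3 differed by -0.07 (95% interval -0.18 to 0.05) and GCD7 by 0.07 (95% interval -0.06 to 0.20), with overlapping groups. GCD2 was the furthest from 0, at 9.42, 9.52 and 9.48 in the deletion and 9.55, 9.70 and 9.59 in wild type (adjusted p = 0.069). It was called without wild type replicate 1 (-0.17, adjusted p = 0.047), after quantile normalization (-0.16, adjusted p = 0.039) and with a trended and robust variance (-0.14, adjusted p = 0.044). It was also called without the dimmest genes (-0.14, adjusted p = 0.05 after rounding) and relative to the median level of its chromosome (-0.18, adjusted p = 0.023).

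The eIF3 genes, which encode the scaffold that bridges the small subunit and the other factors, moved little. RPG1 and PRT1 differed by -0.03 (95% interval -0.14 to 0.07) and -0.05 (95% interval -0.19 to 0.08), and TIF34 was at 11.55 ± 0.02 in the deletion and 11.55 ± 0.06 in wild type. NIP1 read 11.37, 11.44 and 11.44 in the deletion and 11.24, 11.32 and 11.22 in wild type and rose by 0.16 (SE 0.05, adjusted p = 0.027). TIF35 read 10.86, 10.88 and 10.84 in the deletion, against 11.04, 10.96 and 10.96 in wild type, and fell by 0.12 (SE 0.05, adjusted p = 0.046). The 2 calls had opposite signs and were close to the threshold. That on NIP1 was lost without wild type replicate 1 or 3 (adjusted p = 0.062 and 0.092) or npl3 deletion replicate 2 or 3 (adjusted p = 0.081 and 0.082), and after quantile normalization (adjusted p = 0.055). That on TIF35 was lost without any 1 of the 6 arrays (adjusted p = 0.064 to 0.12), with array medians centred (adjusted p = 0.074) and after quantile normalization (adjusted p = 0.06). TIF35 lies beside CYM1, a neighbour of NPL3, and CYM1 itself differed by 0.14 (SE 0.06, adjusted p = 0.079). GPI17, on the other side of NPL3, was called higher (0.24, SE 0.05, adjusted p = 0.0025).

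In the cap-binding complex, CDC33 and DED1 rose and the scaffold genes were not called. CDC33 encodes eIF4E, which binds the cap, and read 11.69, 11.80 and 11.71 in the deletion and 11.62, 11.59 and 11.56 in wild type (0.14, SE 0.05, adjusted p = 0.033). Its call was lost without wild type replicate 2 or 3 (adjusted p = 0.071 and 0.1) or npl3 deletion replicate 2 or 3 (adjusted p = 0.11 and 0.062). The eIF4G genes TIF4631 and TIF4632 encode the scaffold to which Npl3 is known to bind. They differed by 0.08 (95% interval -0.04 to 0.20, adjusted p = 0.2) and 0.11 (SE 0.05, adjusted p = 0.084). Neither pair of groups overlapped, as for 68.8% of all genes. TIF4632 was called without wild type replicate 2 (0.14, adjusted p = 0.05 after rounding) and with array weights (0.13, adjusted p = 0.041). TIF3, the gene of eIF4B, differed by 0.10 (SE 0.04, adjusted p = 0.082). It was called after quantile normalization (0.12, adjusted p = 0.043) and with a trended and robust variance (0.10, adjusted p = 0.044). PAB1, the poly(A)-binding protein that closes the mRNA into a loop with eIF4G, was at 12.04 ± 0.03 in the deletion and 12.03 ± 0.02 in wild type, and was called only relative to the median level of its chromosome (0.19, adjusted p = 0.0064).

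The eIF4E-binding repressors, which compete with eIF4G for the cap-binding protein, differed in their calls. CAF20 read 11.38, 11.33 and 11.30 in the deletion and 11.15, 11.00 and 11.08 in wild type, without overlap. It rose by 0.26 (SE 0.05, adjusted p = 0.0041) and was called with each array left out. EAP1 was at 8.68 ± 0.03 in the deletion and 8.63 ± 0.11 in wild type, with overlapping groups (95% interval of the difference -0.10 to 0.19).

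DBP1 was the only member whose fall passed 1.5-fold. It encodes a DEAD-box RNA helicase closely related to Ded1, which unwinds mRNA leaders for the scanning subunit. DBP1 read 5.05, 4.71 and 4.70 in the deletion, against 5.58, 5.80 and 5.78 in wild type. All deletion arrays lay below all wild type arrays, and it fell by 0.90 (SE 0.11, adjusted p = 0.00023), a fold of 1.87. DBP1 was also the dimmest member, with a mean of 4.82 in the deletion, where NPL3, absent from that strain, still read 3.96. DED1 differed the other way, at 10.82, 10.76 and 10.81 in the deletion and 10.42, 10.71 and 10.52 in wild type, where the arrays were more spread. Its rise of 0.24 (SE 0.08, adjusted p = 0.024) was lost without wild type replicate 1 or 3 (adjusted p = 0.056 and 0.066) or npl3 deletion replicate 1 or 3 (adjusted p = 0.067 and 0.066). DED1 lies beside HIS3, a marker gene labelled his3-11,15 in either strain, which differed by -0.78 (SE 0.08, adjusted p = 9.8e-05).

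Paralogous pairs were compared by the change of one gene minus the change of the other, which uses only differences within a probe set. For DED1 and DBP1 this was 1.15, with a range of 1.08 to 1.25 when each array was left out. DED1 stood higher relative to DBP1 on every deletion array than on any wild type array, and the exact two-sided permutation test gave p = 0.1, the smallest that 3 against 3 arrays can give, with an adjusted p of 0.25 over the 5 pairs. TEF4 and CAM1 differed in their change by 0.20, also with no overlap and p = 0.1 in the exact permutation test. The values were -0.13 for HYP2 and ANB1, -0.07 for YEF3 and HEF3 and -0.03 for TIF4631 and TIF4632, with overlapping groups and exact permutation p of 0.5, 0.5 and 0.7. With 1 array left out, the value for HYP2 and ANB1 ran from -0.241 without wild type replicate 3 to -0.025 without wild type replicate 2. That for YEF3 and HEF3 ran from -0.128 without wild type replicate 3 to -0.003 without npl3 deletion replicate 1.

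**Figure D3:**
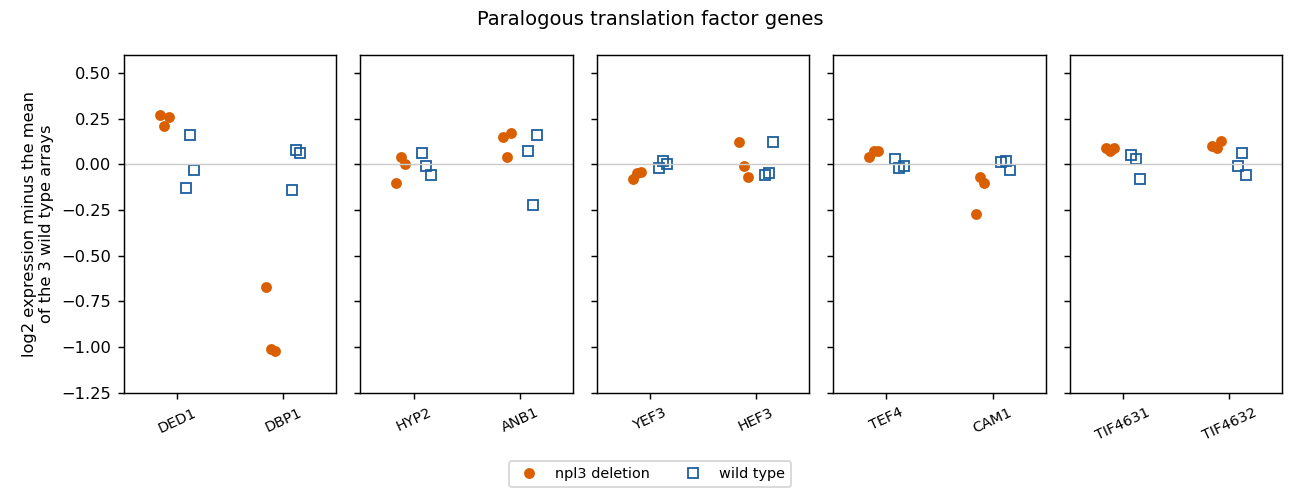
Log2 expression of 5 pairs of paralogous translation factor genes on each array, minus the mean of the gene over the 3 wild type arrays (vertical axis), with the deletion arrays as filled circles left of the wild type arrays as open squares. In the pair DED1 and DBP1 the deletion arrays lie above the wild type mean for DED1 and at -1.02 to -0.67 for DBP1, and the other pairs stay within 0.27 of it.

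Elongation factors changed in 2 of 8 genes, both higher, with a median difference of 0.03. Over all genes, 61.8% of all genes were called and 32.9% were called higher. EFB1 encodes the exchange factor subunit of eEF1B, which recharges eEF1A with GTP, and is a snoRNA host gene (SNR18 lies within it). It read 12.78, 12.86 and 12.87 in the deletion, against 12.51, 12.53 and 12.46 in wild type, without overlap. The rise was 0.34 (SE 0.05, adjusted p = 0.00059), a fold of 1.27, and it was called with each array left out. EFB1 lies on chromosome I, like FUN12, and was lower relative to the median change (-0.48, adjusted p = 0.00012) and the median level (-0.32, adjusted p = 0.0014) of that chromosome.

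The structural subunit of eEF1B is encoded by TEF4 and CAM1, and neither was called. TEF4, which holds SNR38, read 11.98, 12.01 and 12.01 in the deletion and 11.97, 11.92 and 11.93 in wild type (0.06, SE 0.04, adjusted p = 0.29). CAM1 read 10.13, 10.33 and 10.30 in the deletion and 10.41, 10.42 and 10.37 in wild type (-0.15, SE 0.06, adjusted p = 0.075), and was called after quantile normalization (-0.18, adjusted p = 0.037) and with a trended and robust variance (-0.14, adjusted p = 0.037). The genes of eEF1B thus had 1 rise and 2 differences of opposite sign that were not called. The rise, that of EFB1, did not hold relative to its chromosome, as given above. Each of the 3 genes had its deletion arrays apart from its wild type arrays, as did 68.8% of all genes.

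STM1 encodes a protein that binds ribosomes and is known to clamp idle ones. It read 12.55, 12.62 and 12.61 in the deletion and 12.43, 12.47 and 12.48 in wild type, a rise of 0.14 (SE 0.05, adjusted p = 0.033). The groups did not overlap, but the call was lost without any of the wild type replicates (adjusted p = 0.084, 0.061 and 0.064 without replicates 1, 2 and 3) or npl3 deletion replicate 2 or 3 (adjusted p = 0.1 and 0.095). It was also lost after quantile normalization (adjusted p = 0.053) and relative to the median level of its chromosome (adjusted p = 0.055).

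The remaining elongation genes were not called. YEF3, the gene of eEF3, which helps release spent tRNA from fungal ribosomes, read 12.59, 12.62 and 12.63 in the deletion and 12.65, 12.69 and 12.67 in wild type (95% interval of the difference -0.16 to 0.04). Its paralogue HEF3 was at 6.50 ± 0.10 in the deletion and 6.49 ± 0.10 in wild type. HYP2 and ANB1 encode eIF5A, the hypusine-containing factor that relieves stalls at proline runs. HYP2, the form used in the presence of oxygen, was at 12.53 ± 0.08 in the deletion and 12.55 ± 0.06 in wild type. ANB1, the form used without oxygen, was at 7.98 ± 0.07 and 7.86 ± 0.20. The groups overlapped for both eIF5A genes, with 95% intervals of -0.15 to 0.12 for HYP2 and -0.11 to 0.35 for ANB1.

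The release factor genes were not called. SUP45 encodes eRF1, which reads the stop codon, and was at 11.28, 11.28 and 11.29 in the deletion and 11.20, 11.23 and 11.22 in wild type. The difference of 0.07 (95% interval -0.03 to 0.16, adjusted p = 0.2) came without overlap of the groups, as for 68.8% of all genes. SUP35 encodes the GTPase eRF3, known for its prion form, and read 10.82, 10.92 and 10.92 in the deletion and 10.88, 10.89 and 10.81 in wild type. Its groups overlapped, with a difference of 0.03 (95% interval -0.09 to 0.15, adjusted p = 0.69).

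FUN12 and EFB1 are the 2 members on chromosome I, whose genes stood higher as a block in the deletion. Of 90 genes of this chromosome, 74 (82.2%) were called higher, with a median difference of 0.83. The differences of FUN12 (0.63) and EFB1 (0.34) were below that median, and 28 and 16 of the 90 genes had smaller differences than FUN12 and EFB1. The signs of FUN12 and EFB1 turned when the chromosome was the baseline, as given above; the baseline of the median change was chosen after the data were seen. With the median change as baseline for all genes, 7 members were called higher and 4 lower, and CDC33 (adjusted p = 0.13), DED1 (adjusted p = 0.053), SUI3 (adjusted p = 0.053) and STM1 (adjusted p = 0.058) were not called. The neighbours of FUN12, RBG1 and MTW1, rose by 0.80 and 1.15. Those of EFB1 had opposite signs, VPS8 with a rise of 0.70 and the chaperone gene SSA1 at -0.40. Among the 6 chromosome I genes above 11 in wild type, a level chosen after the values were seen, differences ran from -1.02 to 0.63, with FUN12 the highest, whereas the median of the 84 others was 0.84. Whether the chromosome, the level or both set the values of FUN12 and EFB1 was not tested. Without chromosome I genes in the fit, 10 members were called higher and 2 lower.

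**Figure D4:**
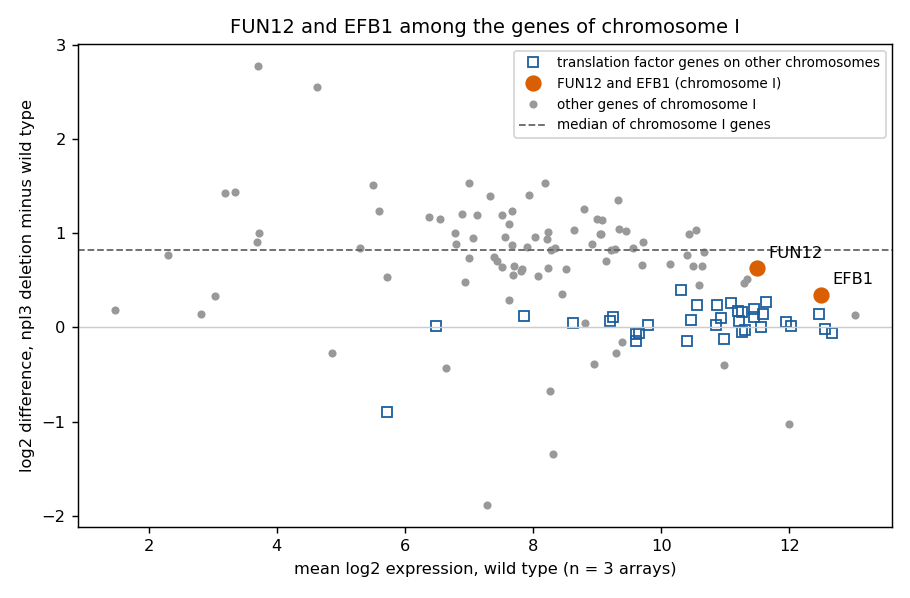
Log2 difference, deletion minus wild type (vertical axis), against the mean log2 expression in wild type (horizontal axis), for the 90 tested genes of chromosome I and the 34 translation factor genes of other chromosomes (open squares). FUN12 and EFB1 (large filled circles) lie below the dashed line at the median of chromosome I, 0.83.

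Other genes of the pathway were taken from lists of initiation regulators, elongation cofactors and rescue factors. Of 16 further initiation genes tested, 6 rose and 6 fell, so 12 of 16 were called, beside 61.8% of all genes. TIF6, which keeps the large subunit from joining early, and HCR1, the eIF3j subunit, rose by 0.29 (SE 0.05, adjusted p = 0.0015) and 0.23 (SE 0.06, adjusted p = 0.011). PBP1, which binds Pab1, fell by 0.46 (SE 0.07, adjusted p = 0.00062). In the control pathway of eIF2, the transcription factor gene GCN4, whose mRNA is translated when eIF2 recycling is blocked, read 11.79, 11.81 and 11.86 in the deletion and 12.25, 12.29 and 12.26 in wild type. It fell by 0.45 (SE 0.05, adjusted p = 0.0001), and relative to the median level of its chromosome the difference was -0.27 (adjusted p = 0.0022). The eIF2 kinase gene GCN2 read 7.75, 7.65 and 7.69 in the deletion and 8.14, 8.19 and 8.06 in wild type and fell by 0.44 (SE 0.05, adjusted p = 0.0003). For both genes all deletion arrays were below all wild type arrays. GCN1, the activator of Gcn2, was called higher (0.16, SE 0.05, adjusted p = 0.019), and its partner GCN20 was not called (0.07, SE 0.05, adjusted p = 0.24). The GCN1 call was lost relative to the median level of its chromosome (adjusted p = 0.075), without wild type replicate 1 (adjusted p = 0.05 after rounding) or 3 (adjusted p = 0.061), or npl3 deletion replicate 2 (adjusted p = 0.065). It was kept relative to that chromosome's median change. These are transcript levels, and the phosphorylation of eIF2 and the translation of GCN4 were not measured.

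Among proteins that, like Npl3, bind eIF4G through RGG motifs, SBP1 rose by 0.17 (SE 0.05, adjusted p = 0.018) and SCD6 differed by -0.01 (95% interval -0.11 to 0.09). The SBP1 call was lost without npl3 deletion replicate 2 (adjusted p = 0.064). TMA20, TMA22 and TMA64, named after their values were seen, encode factors that act on post-termination small subunits and fell by 0.21, fell by 0.22 and fell by 0.19. The TMA20 call was lost relative to the median level of its chromosome (-0.03, adjusted p = 0.7) but kept relative to that chromosome's median change. It also missed the threshold without npl3 deletion replicate 3 (adjusted p = 0.051). The TMA64 call was lost without wild type replicate 2 or 3 (adjusted p = 0.11 and 0.1) or npl3 deletion replicate 1 or 2 (adjusted p = 0.11 and 0.073).

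The core factors encoded by near-identical gene pairs were read by probe sets that can match both copies. The probe set assigned to TIF2 (eIF4A) was at 12.33 ± 0.07 in the deletion and 12.34 ± 0.04 in wild type, that of TEF2 (eEF1A) at 13.18 ± 0.04 and 13.18 ± 0.04, and that of EFT2 (eEF2) at 12.57 ± 0.03 and 12.63 ± 0.04. None was called, with 95% intervals of -0.13 to 0.11, -0.11 to 0.11 and -0.16 to 0.05. TIF1, TEF1 and EFT1 were not analysed here, since no probe set carried their symbols.

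Of 9 further elongation genes tested, 2 rose and 4 fell. The called share was 66.7%, near the 61.8% of all genes. Among the genes of the diphthamide pathway, which modifies eEF2, DPH2 fell by 0.52 (SE 0.07, adjusted p = 0.00061), while DPH1 rose by 0.25 (SE 0.06, adjusted p = 0.0093) and JJJ3 by 0.19 (SE 0.05, adjusted p = 0.015). The JJJ3 call was lost without npl3 deletion replicate 3 (adjusted p = 0.054). DPH5 was not called (-0.10, adjusted p = 0.13). NEW1, a relative of eEF3, fell by 0.36 (SE 0.05, adjusted p = 0.00041). DYS1 and LIA1, the enzymes that make hypusine on eIF5A, were named after their values were seen and fell by 0.19 (SE 0.05, adjusted p = 0.013) and fell by 0.17 (SE 0.05, adjusted p = 0.018). The DYS1 call was lost relative to the median level of its chromosome (-0.06, adjusted p = 0.46) but kept relative to that chromosome's median change. The LIA1 call was lost without npl3 deletion replicate 1 (adjusted p = 0.053) and replicate 3 (adjusted p = 0.05 after rounding).

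Of 8 genes of termination and ribosome rescue, 2 rose and 3 fell, and the called share of 62.5% was near the 61.8% of all genes. TPA1, which interacts with the release factors, read 10.02, 10.05 and 10.04 in the deletion and 10.62, 10.59 and 10.52 in wild type, and fell by 0.54 (SE 0.05, adjusted p = 4.6e-05). ITT1, a modulator of termination that binds both release factors, fell by 0.42 (SE 0.05, adjusted p = 0.00022). DOM34 and SKI7, which act on stalled ribosomes, rose by 0.17 (SE 0.04, adjusted p = 0.01) and 0.21 (SE 0.06, adjusted p = 0.019). The rescue genes did not all rise, since HBS1 was called lower (-0.18, SE 0.04, adjusted p = 0.0086). The SKI7 call was lost without wild type replicate 2 or 3 (adjusted p = 0.057 and 0.056) or npl3 deletion replicate 2 or 3 (adjusted p = 0.067 and 0.069), and relative to the median change of its chromosome (adjusted p = 0.055).

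**Figure D5:**
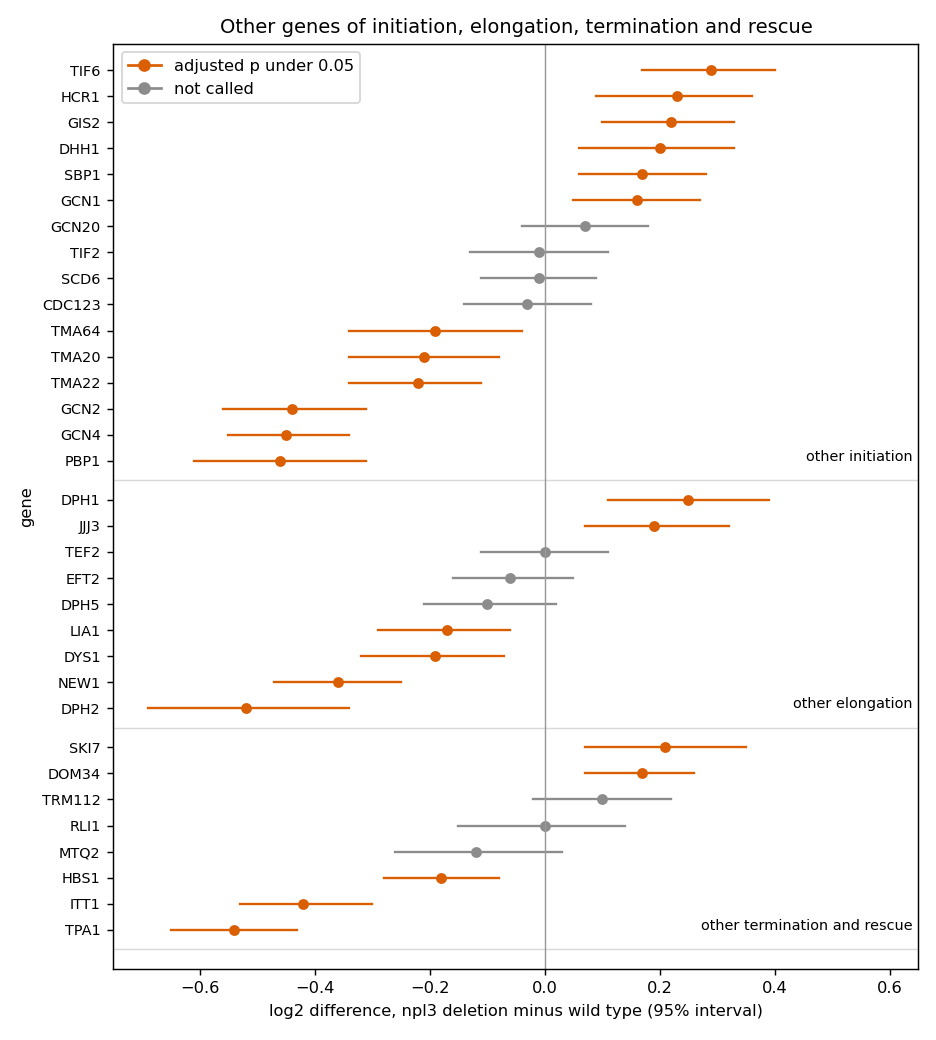
Log2 difference, deletion minus wild type (horizontal axis), of the other tested genes of initiation (16), elongation (9) and termination and rescue (8), with the 95% interval of the limma fit as a line. Called genes are in colour, and PBP1, GCN4, GCN2, DPH2, TPA1 and ITT1 lie furthest to the left.

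Of 19 genes listed with the aminoacyl-tRNA synthetases, which charge the tRNAs, 6 were called, 4 higher and 2 lower, with a median of -0.02. The list includes ARC1, a cofactor of synthetases and not itself a synthetase, which rose by 0.15 (SE 0.04, adjusted p = 0.018). The called share was 31.6%, beside 61.8% of all genes. TYS1 and MES1, for tyrosine and methionine, rose by 0.28 (SE 0.04, adjusted p = 0.0008) and 0.20 (SE 0.05, adjusted p = 0.012). DPS1 and FRS2, for aspartate and phenylalanine, fell by 0.39 (SE 0.05, adjusted p = 0.0005) and fell by 0.26 (SE 0.05, adjusted p = 0.0041). FRS1, also for phenylalanine, was not called (-0.03, SE 0.05, adjusted p = 0.62). Of 7 chaperones that bind nascent chains at the ribosome, 1 (14.3%) was called: BTT1, a beta subunit of the nascent polypeptide-associated complex, rose by 0.51 (SE 0.06, adjusted p = 0.00023). The differences of the other 6 ran from -0.07 to 0.09.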

How the data were processed

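RNA of 6 cultures was measured on Affymetrix yeast arrays, 3 per genotype. The deposited values are normalized log2 expression values per probe set, per the submitters' processing notes from RMA (limma is also listed there), and neither version nor settings are given in the sources used here. RMA equalises the arrays, which would hide a change common to most transcripts. Array medians ran from 4.81 to 4.98. Of 10928 probe sets, 5498 matched a gene of the R64 reference table, and the brightest per gene gave 5449 genes. The 95th percentile of 1746 probe sets whose symbols did not match served as an approximate background level (2.13). Every member was above it, and no member probe set was of the kind marked as matching several transcripts. NPL3 in its own deletion was also above it, at 3.96, so lying above this level does not show that a transcript was present.

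Groups were compared in R 4.3.3 by the moderated two-sided test of limma 3.58.1, without covariates, and adjusted by Benjamini-Hochberg over the 5449 genes. The test was run on simulated data in which few genes changed, by larger amounts than most members did. That run does not show how calls on smaller differences behave. Paralogue pairs were tested with SciPy 1.17.1. Members, lists and tests were chosen with earlier results of these data known. The text names every member, the 2 largest called rises and falls of each other list, and genes fixed for their roles. The TMA genes, DYS1, LIA1, DPH5, GCN1, GCN20, HBS1, FRS1 and chromosomal neighbours were named after their values were seen. Replicate numbers were not used to pair the arrays in the main test. The deviations of same-numbered arrays correlated at -0.187 to -0.073, and those of differently numbered arrays at -0.01 to 0.176. Deviations sum to 0 within a group, so these correlations depend on each other. Whether the cultures were paired was not tested. Alternatives were other scalings, filters, variance models and thresholds, a replicate block, chromosome baselines and each array left out. The number of arrays limits the precision.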

Additional observations from a re-analysis of the deposited data

How the results depend on the processing

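Of 716 combinations of a member and an alternative, 630 left the member called in the same direction or not called. Members not called could change sign within these 630. Some of the combinations had little or no room to change. Averaging the probe sets of a gene, or dropping those marked as matching several transcripts, left the values of every member as they were. The stricter thresholds could only remove calls, so a member not called could not change there. With each array left out in turn, 7 of the 14 calls held throughout (SUI1, TIF5, FUN12, SUI2, CAF20, EFB1 and DBP1) and 7 were lost at least once. The number of members called higher then ran from 6 to 11 and lower from 1 to 2, and for initiation genes from 5 to 9 and 1 to 2. Requiring a fold of 1.5 left 1 member higher and 1 lower (likewise for initiation genes), and 451 and 472 of all genes. An adjusted p under 0.01 left 6 members higher and 1 lower, with 5 and 1 for initiation genes. With array medians centred, and with a replicate block, 1 member (1 initiation gene) was called lower; with the block 8 were called higher, and CDC33, NIP1, STM1, SUI3 and TIF35 were not called (adjusted p = 0.057 to 0.1). A trended, robust variance gave 4 lower, with GCD2 and CAM1 added, and it also added GCD11 and TIF3 to the members called higher. Relative to the median level of the gene's chromosome, 4 were lower, with FUN12 at -0.037 and EFB1 at -0.322, and relative to its median change, an alternative added after the data were seen, 7 were higher and 4 lower, with FUN12 at -0.196 and EFB1 at -0.481. The paralogue difference of TIF4631 and TIF4632 ran from -0.044 to 0.005 with each array left out, and turned sign without wild type replicate 1. Among the members not called, 7 changed sign in some alternative. The cause of the lost calls was not tested. With 3 arrays per group, differences near 0.1 were at the limit of what the test called.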
